A study of Mus musculus with 2 samples.

Results

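The genes described here are 37 NRF2 targets and antioxidant enzymes, taken from the deposited gene table by a list of symbols that was drawn up with earlier results of these data known. All 37 were among the 34745 genes of the table, and 36 had at least 1 FPKM (the reads of a gene scaled by its length and by the library total) in at least 1 library, as did 10948 genes in all. The exception was Me1, which encodes cytosolic malic enzyme and had 16 reads in one library and 17 in the other.

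The libraries came from mouse bone marrow cells induced in culture for 7 days and sorted as CD11b+Ly6G-Ly6C high monocytic myeloid-derived suppressor cells (M-MDSC), immature monocytes that restrain T cells. CHBP- M-MDSC were induced with GM-CSF, a growth factor for myeloid cells, and CHBP+ M-MDSC with GM-CSF and CHBP, a peptide derived from erythropoietin. According to the methods, both media held 2-mercaptoethanol, a reducing agent, and red cells were lysed before culture. The labels give C57BL/6 as the strain of CHBP- and C57BL/7 as that of CHBP+ M-MDSC, while the methods give C57BL/6, and the labels give no dose of CHBP. Each condition had 1 library, with 16484504 counted reads in CHBP- and 16280466 in CHBP+ M-MDSC, so that CHBP and whatever else set the cultures or libraries apart cannot be told apart. Here a floor of 3 reads corresponds to 0.182 and 0.184 CPM (reads scaled to the library total alone), and intervals and tests cover counting error only.

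NRF2, encoded by Nfe2l2, is a transcription factor that KEAP1 holds in the cytosol and delivers for degradation until oxidants or electrophiles modify KEAP1. Free NRF2 pairs with small MAF proteins and binds antioxidant response elements in front of genes for glutathione, thioredoxin, NADPH and iron handling, whereas BACH1 occupies the same elements and represses them until haem binds it. In myeloid cells these enzymes limit damage from the oxidants that the cells themselves make, and myeloid-derived suppressor cells are known for using oxidants and nitric oxide against T cells.

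The core of the antioxidant response element, TGACNNNGC, was looked for on both strands of the RefSeq promoter windows, which run from 250 bases before to 50 bases after each start site (build GRCm38.p6). Of the 37 genes, 33 had a window and 10 of these held the core in at least 1 window, or 30.3%. The core stood in 14.0% of all 27025 genes with a window and in 17.3% of the 8098 of them with at least 1 FPKM. A gene with more windows has more places for a match, and the 33 genes had 45 windows while the 27025 had 32851. The stretches below are those of the 7 genes whose match lay before the start site. They are shown because they hold the letters of the core. They run 5′ to 3′ on the strand of the gene, with the core in capitals, and a core that lies on the opposite strand reads GCNNNGTCA.
Nfe2l2: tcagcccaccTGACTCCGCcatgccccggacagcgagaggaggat
Gclm: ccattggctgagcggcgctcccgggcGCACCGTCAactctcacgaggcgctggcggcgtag
Prdx1: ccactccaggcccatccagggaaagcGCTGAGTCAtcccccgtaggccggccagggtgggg
Txnrd1: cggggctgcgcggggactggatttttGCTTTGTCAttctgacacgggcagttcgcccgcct
Sod1: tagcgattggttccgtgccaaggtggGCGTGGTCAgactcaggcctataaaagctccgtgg
Mgst1: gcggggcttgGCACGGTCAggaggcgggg
G6pdx: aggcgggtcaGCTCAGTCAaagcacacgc

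The stretch of Nfe2l2 lies at chr2:75704869-75704913 on the minus strand, and its core ends 231 bases before the start site. That of Gclm is chr3:122245397-122245457, that of Prdx1 is chr4:116685440-116685500, and that of Txnrd1 is chr10:82859088-82859148, all on the plus strand with the core 125, 124 and 83 bases before the start site. The Sod1 stretch, chr16:90220680-90220740 on the plus strand, has its core 47 bases before the start site. The stretches of Mgst1 (chr6:138140461-138140489, plus strand) and G6pdx (chrX:74428919-74428947, minus strand) precede start sites that lie inside the deposited span of the gene. In Me1, Pgd and Srxn1 the core lay across or after the start site. The 10 genes comprise both directions of difference between the libraries, and their values follow with those of the other genes. A match is a match of letters and was not tested for binding.

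Most antioxidant genes were lower in CHBP+ than in CHBP- M-MDSC, by a small margin. The log2 ratio, taken after 1 was added to each FPKM and with CHBP+ over CHBP-, was below 0 for 30 of the 36 genes, while it was below 0 for 53.7% of all genes of at least 1 FPKM. Its median was -0.16 over the 36 genes and -0.03 over all genes, and it ranged from -0.70 for Prdx5 to 0.39 for Bach1. In these bulk samples, fewer cells of a type and less RNA per cell cannot be told apart. For genes of low FPKM the added 1 draws the log2 ratio towards 0.

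At a threshold of 1.5-fold, 3 of the 36 genes were lower in CHBP+ M-MDSC (Prdx5, Sod1 and Gsto1) and none was higher. That is 8.33% of the 36 genes, beside 2.89% of all genes lower and 3.42% higher, and it rests on few genes. Just inside the threshold was Gsto1, with a log2 ratio of -0.59, and just outside were Gpx4 and Txn1, each at -0.50. A two-sided exact binomial test of the reads of a gene against the library totals, with Benjamini-Hochberg adjustment over 14162 genes, put 23 of the 37 genes lower, 3 higher (Bach1, Txnrd1 and G6pdx) and 11 on neither side. Among all genes tested, 22.2% were lower and 21.9% higher. That test compares the 2 libraries rather than the conditions. It passes smaller differences where reads are many, and the 36 genes held a median of 2573 reads in CHBP- M-MDSC against 589 for all genes of at least 1 FPKM.

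**Figure D1:**
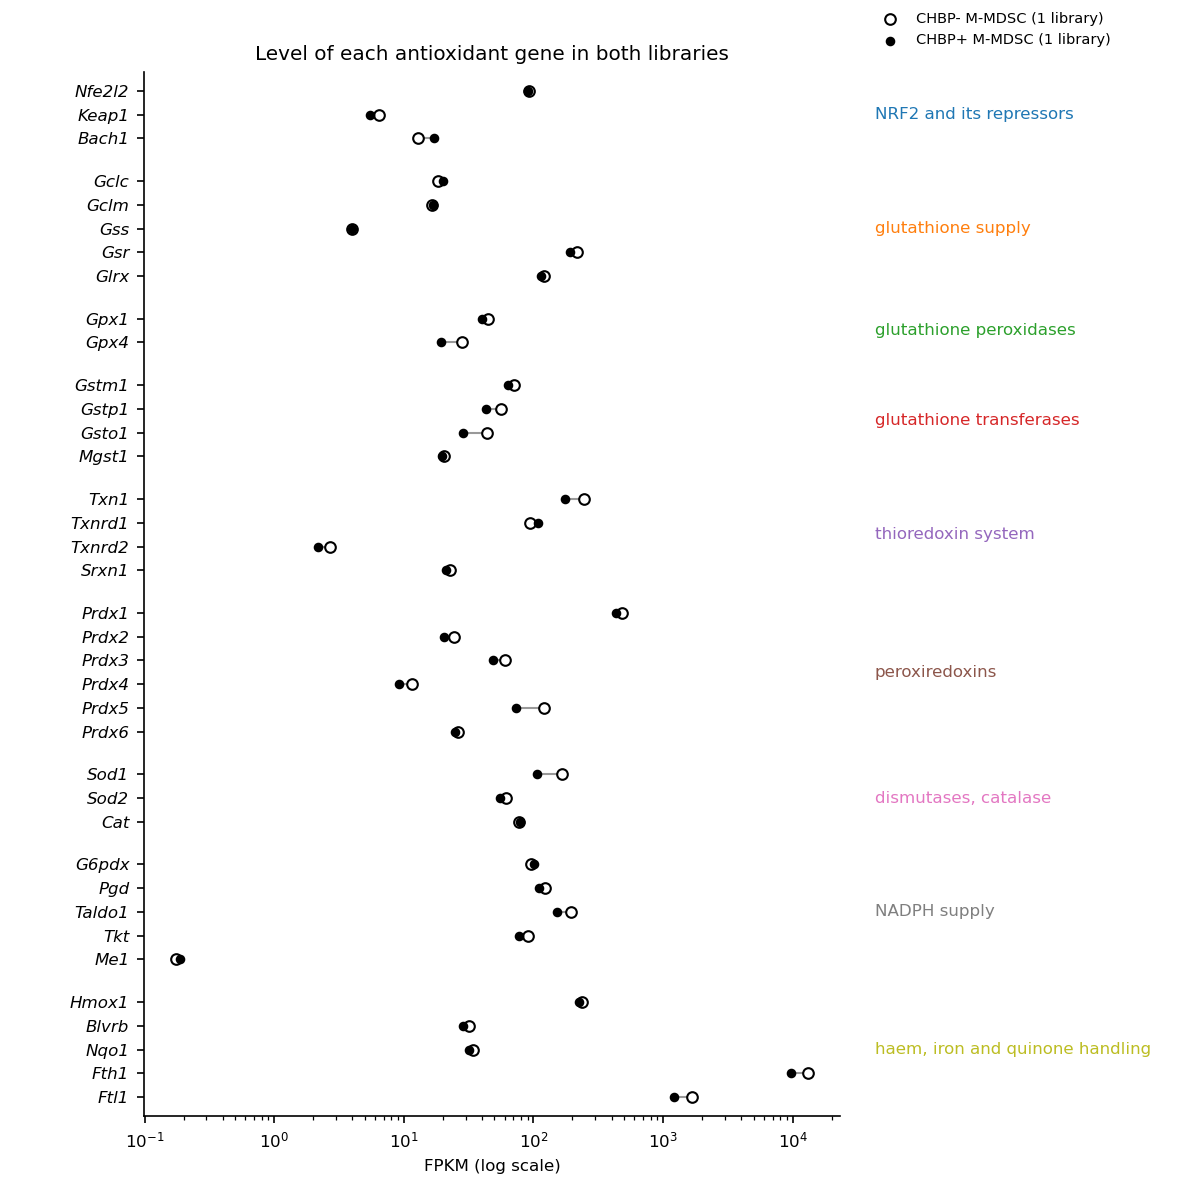
FPKM of the 37 antioxidant genes on a log scale in CHBP- M-MDSC (open circles) and CHBP+ M-MDSC (filled circles), 1 library each and no error bars, grouped by role. The levels span from under 1 FPKM for Me1 to 13195 FPKM for Fth1, and within a gene both circles lie close together.

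**Figure D2:**
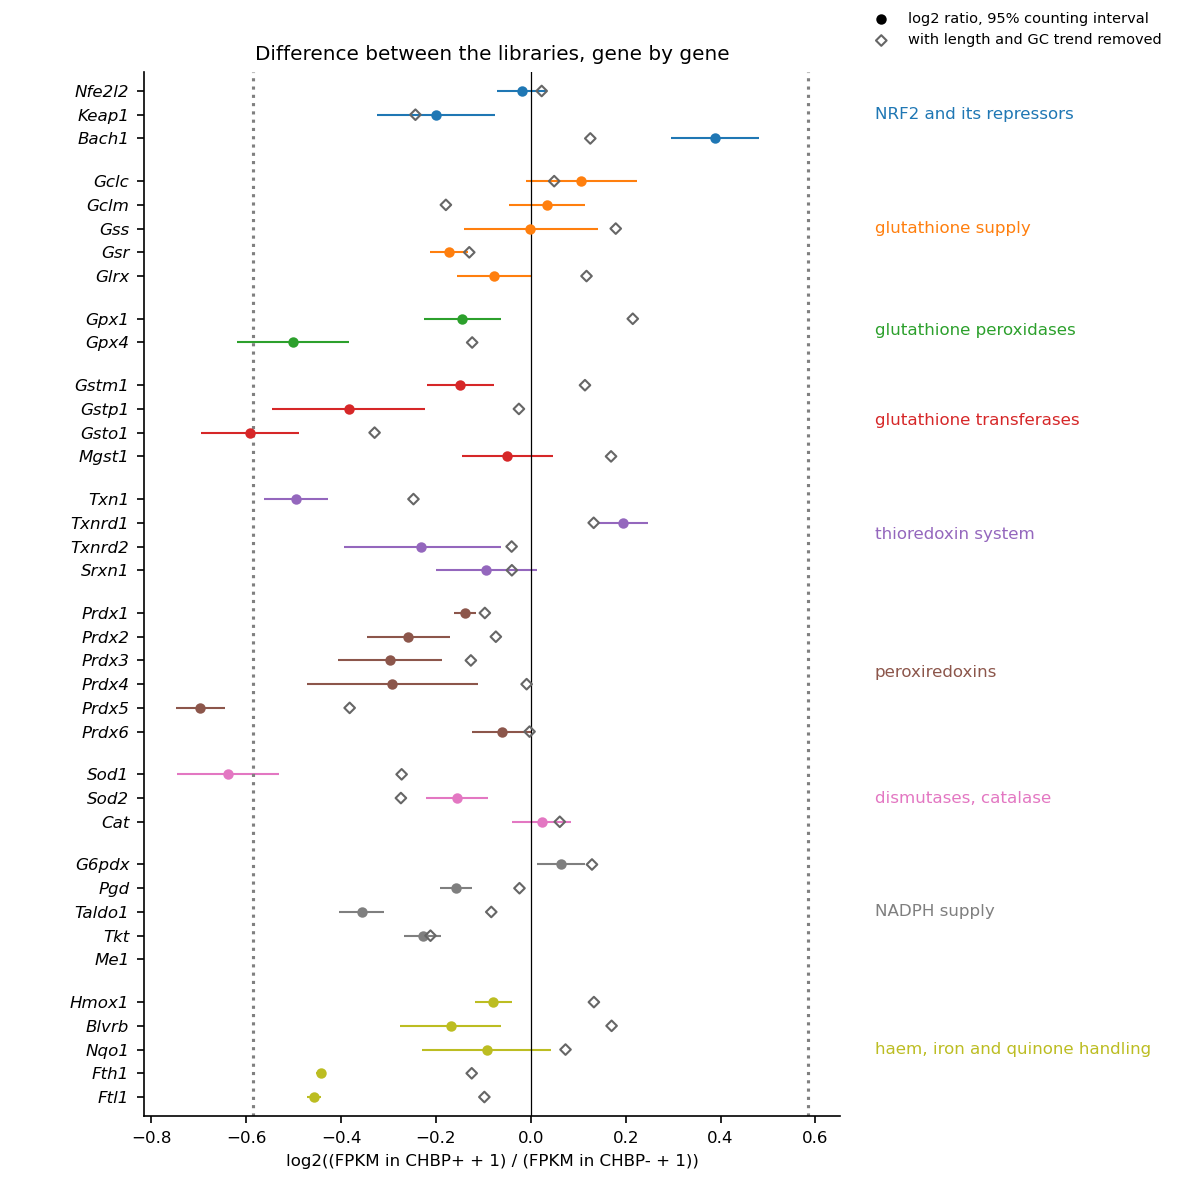
Log2 ratio of FPKM + 1, CHBP+ over CHBP- M-MDSC, for the same genes (filled circles, with bars for the exact 95% interval that covers counting error only) and the value left once the trend on transcript length and GC content was taken out (open diamonds). Dotted lines mark 1.5-fold, Me1 has no point because it was under 1 FPKM, and 30 of the 36 circles lie left of 0.

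The lower values went with short transcripts. Across the 10211 genes of at least 1 FPKM with a protein-coding transcript in GENCODE M1, the log2 ratio followed the length of the longest transcript with a Spearman's rho of 0.687, and across the 36 antioxidant genes rho was 0.661 (genes within the same pair of libraries, which are not independent replicates). The median transcript of the 36 genes was 1609 bases long and that of all genes 2893 bases. Among the 7 antioxidant genes under 1000 bases the median log2 ratio was -0.44, beside -0.39 for the 726 genes of that length. In the range from 1000 to 2000 bases the 14 antioxidant genes had a median of -0.20 and the 2240 genes -0.22. The medians from 2000 to 3000 bases were -0.08 for 8 antioxidant genes and -0.08 for 2387 genes. From 3000 to 5000 bases they differed in sign, at -0.06 for 6 antioxidant genes (Tkt, Gclc, Txnrd1, Sod2, Keap1 and Gclm) and 0.07 for 3129 genes. Bach1 was the one gene of 5000 bases or more, and its log2 ratio of 0.39 stood beside a median of 0.30 for 1729 genes.

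With a cubic trend on transcript length and GC content taken out, 22 of the 36 genes were below 0 and 14 above, beside 51.4% of all genes below 0. The median then was -0.03, against -0.01 for all genes, and rho with transcript length was 0.00952. None of the 36 genes was 1.5-fold lower or higher on that scale, beside 0.979% of all genes lower and 1.85% higher. The SD of these values was 0.159 over the 36 genes and 0.244 over all genes. What links the log2 ratio to length in these libraries was not tested. In what follows, "trend-removed" names this value.

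**Figure D3:**
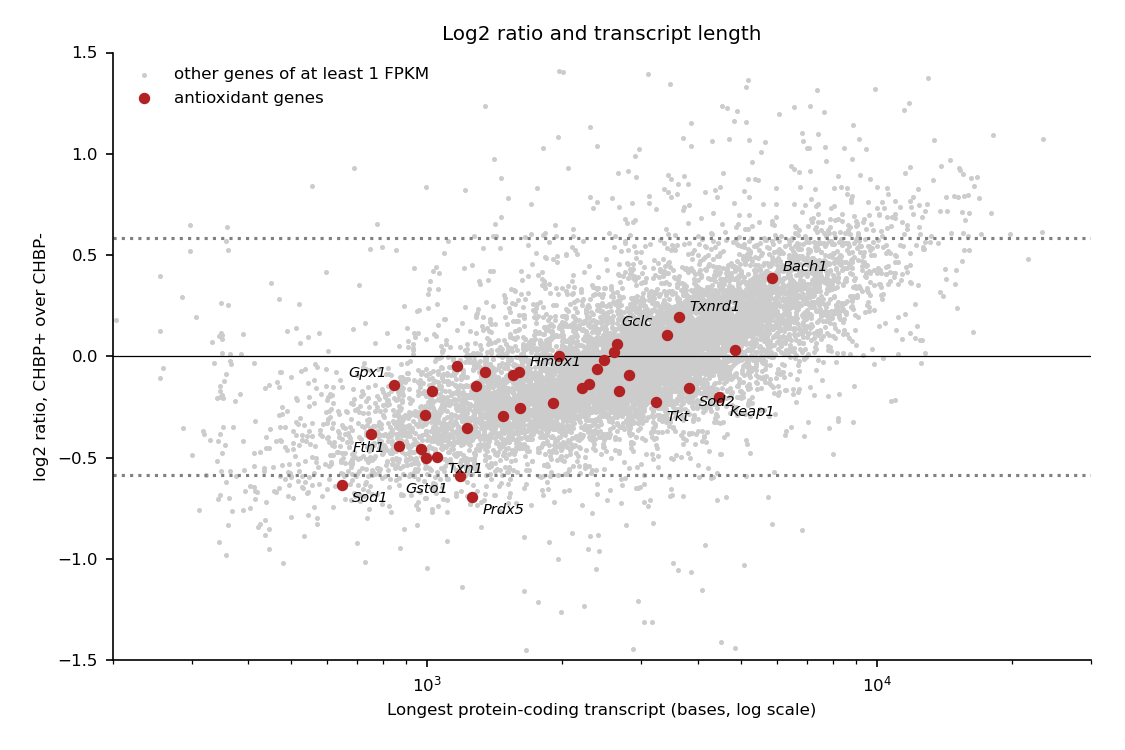
Log2 ratio (CHBP+ over CHBP- M-MDSC) against the length of the longest protein-coding transcript, in bases on a log scale, for genes of at least 1 FPKM (grey) and the antioxidant genes (red). Dotted lines mark 1.5-fold, and genes outside the axes are not drawn. The red points run with the grey cloud, from Sod1 at -0.64 on the left to Bach1 at 0.39 on the right.

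The transcript of NRF2 itself differed between the libraries by less than counting error. Nfe2l2 (ENSMUSG00000015839, chromosome 2 from 75675513 to 75704641) had 5975 reads in CHBP- and 5825 in CHBP+ M-MDSC (92.4 and 91.2 FPKM). Scaled to the library totals, its reads in CHBP+ were 0.987 times those in CHBP- M-MDSC, and the exact 95% interval of this fold (Clopper-Pearson) ran from 0.952 to 1.02. No difference was detectable at this depth (adjusted p = 0.617 by the exact binomial test with Benjamini-Hochberg adjustment). Its repressors differed in opposite directions. Keap1, the adaptor that marks NRF2 for degradation (ENSMUSG00000003308, chromosome 9 from 21229730 to 21239332), had 837 and 703 reads, or 6.48 and 5.51 FPKM, and was lower in CHBP+ M-MDSC. Its fold was 0.850 (interval 0.768 to 0.941, adjusted p = 0.00481 by the same exact test), its log2 ratio was -0.20 and its trend-removed value was -0.24. Bach1, the repressor at the response elements (ENSMUSG00000025612, chromosome 16 from 87698945 to 87733346), had 1482 and 1950 reads, or 12.9 and 17.1 FPKM, and was higher. Its fold was 1.33 (interval 1.24 to 1.43, adjusted p = 7.4e-16 by the exact test). Bach1 has a long transcript of 5867 bases, and its trend-removed value was 0.13. In FPKM, the ratio of Keap1 to Bach1 was 0.503 in CHBP- and 0.321 in CHBP+ M-MDSC.

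The 3 genes of glutathione synthesis differed by less than counting error. Gclc, the catalytic subunit of glutamate-cysteine ligase, which sets the pace of glutathione synthesis, had 1042 reads in CHBP- and 1112 in CHBP+ M-MDSC (18.5 and 20.0 FPKM). Gclm, the modifier subunit of the same enzyme, had 2238 and 2265 reads, or 16.4 and 16.8 FPKM. Gss, glutathione synthetase, had 525 and 518 reads, or 3.95 FPKM in each. For all 3 the interval of the fold spanned 1, with folds of 1.08 (0.992 to 1.18), 1.02 (0.966 to 1.09) and 0.999 (0.883 to 1.13). The ratio of Gclc to Gclm in FPKM was 1.13 in CHBP- and 1.19 in CHBP+ M-MDSC. Gsr, the reductase that turns oxidised glutathione back with NADPH, was lower, with 10573 and 9265 reads (216 and 191 FPKM) and a fold of 0.887 (0.863 to 0.912). Glrx, a glutaredoxin that frees proteins of bound glutathione, had 2653 and 2482 reads and a fold of 0.947 (0.896 to 1.00). The trend-removed values of the 5 genes had both signs, from -0.18 for Gclm to 0.18 for Gss.

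The glutathione peroxidases were unequal. Gpx4, the selenoenzyme that reduces lipid hydroperoxides in membranes (ENSMUSG00000075706, chromosome 10 from 80047166 to 80056439), had 1290 reads in CHBP- and 887 in CHBP+ M-MDSC (27.9 and 19.4 FPKM). It had the larger difference of the pair, with a fold of 0.696 (0.638 to 0.759). Gpx1, which clears hydrogen peroxide in the cytosol, had 2493 and 2223 reads, or 44.3 and 40.0 FPKM, and a fold of 0.903 (0.852 to 0.956). The intervals of the folds of Gpx1 and Gpx4 did not overlap, and the ratio of Gpx1 to Gpx4 in FPKM was 1.59 in CHBP- and 2.06 in CHBP+ M-MDSC. Both transcripts are short, at 847 and 995 bases, and the trend-removed values were 0.21 for Gpx1 and -0.12 for Gpx4, so that the direction of Gpx1 turned. With a trend on gene length removed instead, Gpx1 was at -0.06 and Gpx4 at -0.38, and neither direction turned.

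All 4 glutathione transferases, enzymes that couple glutathione to electrophiles, had lower values in CHBP+ M-MDSC, and 3 passed the read test. Gsto1, an omega-class enzyme with thiol transferase activity (ENSMUSG00000025068, chromosome 19 from 47854970 to 47864790), had 1806 and 1170 reads, or 44.0 and 28.8 FPKM. Its fold was 0.656 (0.609 to 0.706, adjusted p = 1.54e-28 by the exact binomial test with Benjamini-Hochberg adjustment). The whole span of Gsto1 lies within that of another listed gene, Cfap43, which had 1051 and 1066 reads, and how the counting treated strand and shared reads is not given in the sources used here. With the reads of both genes added, the fold was 0.792 (0.749 to 0.838) and the log2 ratio -0.33. Gstp1, the pi-class enzyme, had 705 and 531 reads, or 56.5 and 43.1 FPKM, and a fold of 0.763 (0.680 to 0.855), while its near copy Gstp2 had 3 and 0. Gstm1, the mu-class enzyme, had 3340 and 2971 reads and a fold of 0.901 (0.857 to 0.947). Its near relatives Gstm2, with 554 and 492 reads, and Gstm4, with 504 and 522 reads, could share reads with it. Mgst1, a membrane enzyme that also reduces lipid hydroperoxides, had 1632 and 1555 reads and a fold of 0.965 (0.899 to 1.03). After the trend was removed, Gsto1 was at -0.33, Gstp1 at -0.03, Gstm1 at 0.11 and Mgst1 at 0.17.

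Within the thioredoxin system, the substrate and its reductase went in opposite directions. Txn1, the small dithiol protein that reduces peroxiredoxins and ribonucleotide reductase (ENSMUSG00000028367, chromosome 4 from 57943373 to 57956411), had 4273 reads in CHBP- and 2988 in CHBP+ M-MDSC (247 and 175 FPKM). It was lower in CHBP+ M-MDSC, with a fold of 0.708 (0.675 to 0.742, adjusted p = 1.2e-46 by the exact test). Txnrd1, the cytosolic selenoenzyme that reduces thioredoxin with NADPH (ENSMUSG00000020250, chromosome 10 from 82859206 to 82897724), had 5290 and 5988 reads, or 93.9 and 108 FPKM. It was higher, with a fold of 1.15 (1.10 to 1.19, adjusted p = 4.24e-12 by the exact test). The ratio of Txnrd1 to Txn1 in FPKM was 0.381 in CHBP- and 0.616 in CHBP+ M-MDSC. The transcripts are 1051 bases for Txn1 and 3634 bases for Txnrd1, and the trend-removed values were -0.25 and 0.13, in the same directions. Txnrd2, the mitochondrial reductase, had 324 and 255 reads (2.71 and 2.16 FPKM) and a fold of 0.797 (0.674 to 0.942). Srxn1, sulfiredoxin, which repairs overoxidised peroxiredoxins, had 1366 and 1260 reads and a fold of 0.934 (0.864 to 1.01).

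All 6 peroxiredoxins, the thiol peroxidases that thioredoxin recharges, had negative values both before and after the trend was removed, with Prdx4 at -0.01 and Prdx6 nearer to 0 after it. Of the 6 genes, 5 passed the read test as lower and Prdx6 did not. Prdx5, a peroxiredoxin of mitochondria, peroxisomes and cytosol (ENSMUSG00000024953, chromosome 19 from 6906697 to 6910106), had 7644 reads in CHBP- and 4635 in CHBP+ M-MDSC (119.7 and 73.5 FPKM). Its fold of 0.614 (0.592 to 0.637) was the lowest of the 37 genes (adjusted p = 1.04e-153 by the exact binomial test with Benjamini-Hochberg adjustment), and its log2 ratio lay at percentile 1.41 among all genes of at least 1 FPKM. One end of Prdx5 overlaps Trmt112, which had 219 and 126 reads, and with those reads added the fold was 0.613. The trend-removed value was -0.38. Prdx1, the main cytosolic form and, after the ferritin chains, the most abundant gene of the list, had 32359 and 29019 reads, or 480.1 and 436 FPKM, and a fold of 0.908 (0.894 to 0.923). Its ratio to Prdx5 in FPKM was 4.01 in CHBP- and 5.93 in CHBP+ M-MDSC. The mitochondrial Prdx3 had 1468 and 1176 reads and a fold of 0.811 (0.751 to 0.876). Prdx4, the form of the endoplasmic reticulum, had 469 and 371 reads and a fold of 0.801 (0.697 to 0.920). Prdx2, abundant in red cells, had 2125 and 1741 reads and a fold of 0.830 (0.778 to 0.884). Prdx6, which also acts on phospholipids, had 3918 and 3703 reads and a fold of 0.957 (0.915 to 1.00). Median log2 ratios of the group were -0.28 before and -0.09 after the trend was removed.

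Both superoxide dismutases were lower, and no difference was detectable for catalase. Sod1, the cytosolic copper and zinc enzyme (ENSMUSG00000022982, chromosome 16 from 90220742 to 90226322), had 1761 reads in CHBP- and 1114 in CHBP+ M-MDSC (165 and 106 FPKM). Its fold was 0.641 (0.594 to 0.691, adjusted p = 1.14e-30 by the exact binomial test with Benjamini-Hochberg adjustment). Its transcript, of 646 bases, was the shortest of the list, and the trend-removed value was -0.27. Sod2, the manganese enzyme of mitochondria (ENSMUSG00000006818, chromosome 17 from 13007839 to 13018119), had 3883 and 3437 reads, or 61.6 and 55.2 FPKM, and a smaller difference, with a fold of 0.896 (0.856 to 0.939). At 3824 bases its transcript is of a length at which most genes were higher, and its trend-removed value was -0.27 as well. Cat, catalase, which splits hydrogen peroxide in peroxisomes, had 3986 and 4000 reads and a fold of 1.02 (0.972 to 1.06).

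Among the enzymes of NADPH production and the pentose phosphate pathway, G6pdx was slightly higher, while Pgd, Taldo1 and Tkt were lower. G6pdx, glucose-6-phosphate dehydrogenase, which commits glucose to the pathway (ENSMUSG00000031400, chromosome X from 74409483 to 74429194), had 6107 reads in CHBP- and 6302 in CHBP+ M-MDSC (96.0 and 100.3 FPKM). It was higher by a narrow margin, with a fold of 1.04 (1.01 to 1.08, adjusted p = 0.0351 by the exact test). The span of G6pdx is shared with Ikbkg, and with the reads of Ikbkg added the fold was 1.06 (1.02 to 1.09). Pgd, 6-phosphogluconate dehydrogenase, the second NADPH-producing step, had 14784 and 13070 reads, or 122.5 and 109.7 FPKM, and was lower, with a fold of 0.895 (0.874 to 0.917). Taldo1, transaldolase of the non-oxidative branch, had 8116 and 6251 reads, or 194 and 151 FPKM, and a fold of 0.780 (0.754 to 0.806). Tkt, transketolase of the same branch, had 11172 and 9404 reads and a fold of 0.852 (0.829 to 0.876). After the trend was removed G6pdx was at 0.13, Pgd at -0.02, Taldo1 at -0.08 and Tkt at -0.21. Me1, at 0.174 and 0.187 FPKM, was below the minimum FPKM for a gene to be kept. Its 16 reads in CHBP- and 17 in CHBP+ M-MDSC, or 0.971 and 1.04 CPM, were above the floors of 0.182 and 0.184 CPM. The fold interval of Me1 ran from 0.511 to 2.28.

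Ferritin accounted for most reads of the list. Fth1, the heavy chain that oxidises iron for storage (ENSMUSG00000024661, chromosome 19 from 9982703 to 9985092), had 188373 reads in CHBP- and 136853 in CHBP+ M-MDSC (13195 and 9707 FPKM). Ftl1, the light chain that helps the iron core form (ENSMUSG00000050708, chromosome 7 from 45457944 to 45459884), had 77989 and 56105 reads, or 1674 and 1219 FPKM. The listed pseudogenes Fth-ps2 and Ftl2-ps had 2 reads each in each library. Both chains were lower in CHBP+ M-MDSC and by nearly the same factor, with folds of 0.736 (0.731 to 0.741) and 0.728 (0.721 to 0.736). The ratio of Fth1 to Ftl1 in FPKM was 7.88 in CHBP- and 7.96 in CHBP+ M-MDSC. Together the chains took 1.62% of all counted reads in CHBP- M-MDSC (Wilson 95% interval 1.61% to 1.62%) and 1.19% in CHBP+ M-MDSC (1.18% to 1.19%). The 35 other genes took 0.963% (0.959% to 0.968%) and 0.862% (0.858% to 0.867%). Both ferritin transcripts are under 1000 bases, and the trend-removed values were -0.12 for Fth1 and -0.10 for Ftl1.

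The enzymes of haem and quinone handling had log2 ratios nearer to 0 than ferritin, but with the trend removed Blvrb and Hmox1 lay farther from 0 than either chain. Hmox1, haem oxygenase, which opens the haem ring and is a classic NRF2 and BACH1 target (ENSMUSG00000005413, chromosome 8 from 75093591 to 75100596), had 10821 reads in CHBP- and 10113 in CHBP+ M-MDSC (237 and 224 FPKM). It was lower by a small margin, with a fold of 0.946 (0.921 to 0.972), and stood at 0.13 after the trend was removed, so that its direction turned. Blvrb, a biliverdin reductase that is abundant in red cells, had 1463 and 1280 reads and a fold of 0.886 (0.821 to 0.956), and its trend-removed value was 0.17, likewise of the other sign. Nqo1, the quinone reductase most often used as a readout of NRF2 (ENSMUSG00000003849, chromosome 8 from 107388225 to 107403206), had 868 and 802 reads, or 33.9 and 31.7 FPKM. Its fold was 0.936 (0.849 to 1.03), and a difference was not detectable at this depth.

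By level, Fth1, Ftl1 and Prdx1 held the first 3 places in both libraries, per gene length as in FPKM and also per transcript length in CHBP- M-MDSC. In FPKM of CHBP- M-MDSC they were followed by Txn1 at 247, Hmox1 at 237, Gsr at 216 and Taldo1 at 194. The gene length behind FPKM differs from the transcript length (3412 against 847 bases for Gpx1), and per kilobase of the longest transcript the next in order were Hmox1, Pgd, Taldo1 and Prdx5. The lowest places above Me1 were those of Txnrd2, Gss and Keap1 in FPKM. Sod1 stood in place 8 of 37 in CHBP- and 11 in CHBP+ M-MDSC, and Prdx5 in place 10 and 16, while Txnrd1 stood in place 13 and 10.

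The genes with the response element core lay on both sides of 0. Of the 9 with at least 1 FPKM, 6 were below 0, with a median log2 ratio of -0.05 and a range from -0.64 (Sod1) to 0.19 (Txnrd1). Of the 23 genes with a window and no match, 21 were below 0, with a median of -0.23. The former had a median transcript of 2475 bases and the latter of 1289 bases, and the trend-removed medians were -0.02 and -0.07. Gclc, Gsr, Hmox1 and Prdx6 had no window. Elements outside the windows were not looked for, so a gene without a match can still have one.

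Around these genes, 140 other symbols of the pathway were looked up, of which 137 were in the table and 117 had at least 1 FPKM. Of these 117, 76 were lower (65.0%, beside 53.7% of all genes) and 41 higher, with a median log2 ratio of -0.11. Past 1.5-fold were 4 in each direction, or 3.42%, close to the 2.89% of all genes lower and 3.42% higher. By the read test 32.8% of 131 were lower and 19.8% higher, beside 22.2% and 21.9% of all genes tested. With the trend removed, 63 of 117 were below 0 (53.8%, beside 51.4% of all genes), and the median was -0.02. On that scale 4 of 117 were past 1.5-fold higher and 0 lower, beside 1.85% and 0.979% of all genes. In the list of NRF2 control (small MAF proteins, ubiquitin ligases, coactivators and relatives of NRF2), 8 of 18 were lower, with a median of 0.09, and 10 of 18 with the trend removed, with a median of -0.04. The list of glutathione and cystine supply and use had 18 of 25 lower and a median of -0.15, but 12 of 25 and 0.00 with the trend removed. Thioredoxin, methionine sulfoxide and selenoprotein genes had 19 of 23 lower and a median of -0.21, and 13 of 23 and -0.08 with the trend removed. Other sources of NADPH had 8 of 15 lower (median -0.06), and 9 of 15 with the trend removed (median -0.03). Iron and haem handling had 10 of 19 lower (median -0.03), and 8 of 19 with the trend removed (median 0.04). Further NRF2 targets had 13 of 17 lower (median -0.18), and 11 of 17 with the trend removed (median -0.05).

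Of these other genes of the pathway, the 8 past 1.5-fold are named, in each direction a share close to that of all genes. Flvcr1, a haem exporter listed as Mfsd7b, had 157 reads in CHBP- and 817 in CHBP+ M-MDSC (0.827 and 4.36 FPKM), with a fold of 5.27 (4.44 to 6.29). It reached 1 FPKM in CHBP+ M-MDSC only, so it was kept and counted through the library in which it was higher. Nfe2l1, a relative of NRF2 that governs proteasome genes, had 1190 and 3080 reads and a fold of 2.62 (2.45 to 2.80). Both stayed above 1.5-fold with the trend removed, at log2 values of 1.42 and 1.12. Idh1, which makes NADPH from isocitrate in the cytosol, had 3625 and 6223 reads and a trend-removed value of 0.83. The fourth gene past 1.5-fold on the trend-removed scale was Sesn3, a sestrin, at 0.61, named after its value was seen. Sesn3 had few reads, 50 in CHBP- and 85 in CHBP+ M-MDSC, and its log2 ratio of 0.51 was under the threshold of 1.5-fold. Ep300, an acetyltransferase that NRF2 recruits, had 1599 and 2913 reads and a trend-removed value of 0.36. The 4 lower genes were Selenow (listed as Sepw1), with 628 and 351 reads, Selenoh (listed as 2700094K13Rik), with 296 and 152, Gsta4, with 36 and 18, and Nfe2, an erythroid and megakaryocytic relative of NRF2, with 3119 and 1991. Their trend-removed values ran from -0.44 for Nfe2 to -0.33 for Gsta4. Gsta4 had few reads, and the interval of its fold of 0.506 (0.271 to 0.915) also holds differences smaller than 1.5-fold.

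**Figure D4:**
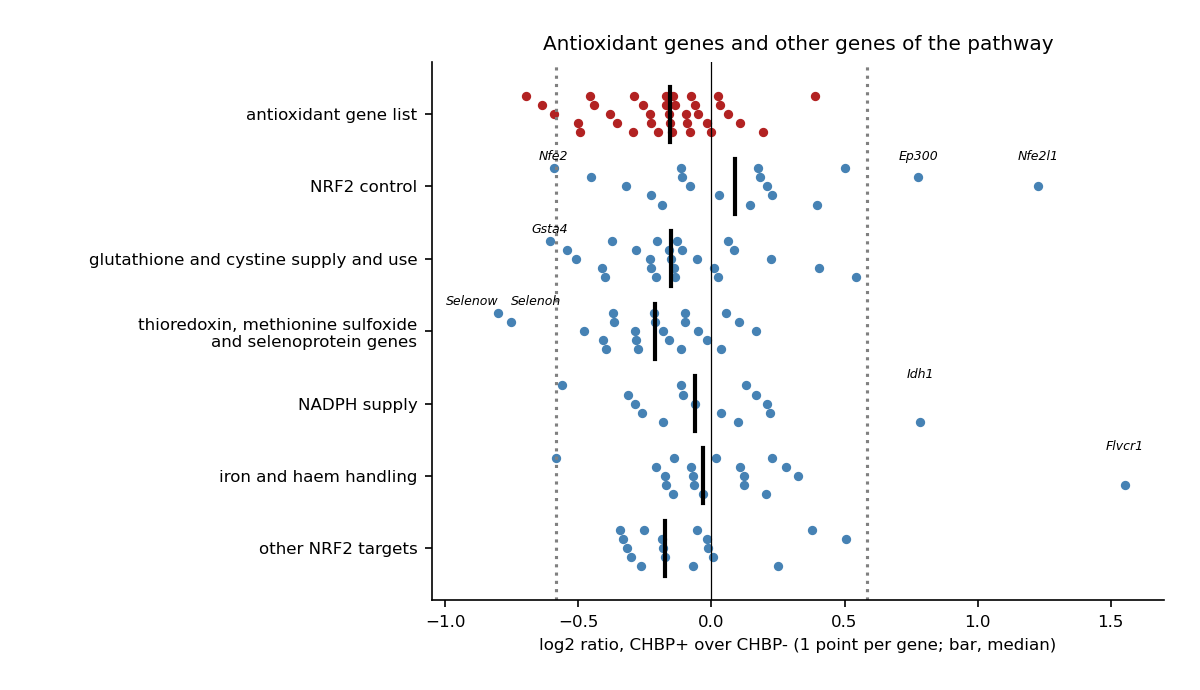
Log2 ratio (CHBP+ over CHBP- M-MDSC) of each antioxidant gene (red) and of each gene of at least 1 FPKM in the 6 other pathway lists (blue), with 1 point per gene and a black bar at the median. Dotted lines mark 1.5-fold and names mark the genes past it outside the antioxidant list. Flvcr1 at 1.55 and Nfe2l1 at 1.23 lie farthest to the right, and Flvcr1 reached 1 FPKM in CHBP+ M-MDSC only.

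The sorting genes were detected in both libraries, at unequal levels. Itgam, which encodes CD11b, had 18653 and 27265 reads on one of its 2 rows and 8703 and 13147 on the other, Csf1r had 10908 and 12000, and Ly6g was low with 46 and 44 reads. Ly6c2, a gene of the Ly6C antigen used for the sort, had 4091 and 2411 reads, a log2 ratio of -0.73 and a trend-removed value of -0.42. Ly6c1, listed with it, had 201 and 156 reads, a log2 ratio of -0.27 and a trend-removed value of 0.04. Ccr2 was at 3.29 and 3.84 FPKM. Of the 8 rows for sorting and monocyte genes 3 were lower, and 2 of 7 with the trend removed. Genes of red cells were also detected and were lower in CHBP+ M-MDSC. Of 13 erythroid markers, 9 had at least 1 FPKM and 8 of these were lower, the summed level of all 13 was 1321 FPKM in CHBP- and 618.9 FPKM in CHBP+ M-MDSC, and none was at 0. With the trend removed, 8 of the 9 were below 0. Hbb-bs, a beta globin, had 20238 and 5989 reads and the lowest log2 ratio of these markers, at -1.73. At 708.0 and 212.1 FPKM it carried much of the lower sum. The other globin genes Hba-a1, Hba-a2 and Hbb-bt were at -0.58, -0.64 and -0.64. Slc4a1 was at -0.06, and Tfrc was higher, at 0.28. Prdx2, Blvrb, Cat, Gpx1 and Sod1, described above, are known to be abundant in red cells, and the part of red cell RNA in their values was not tested. Among all genes, 53.7% were below 0, and 51.4% with the trend removed. Neutrophil markers were lower in 9 of 12 genes and in 5 of 12 with the trend removed (3464 and 3115 FPKM in sum), and their median turned from -0.21 to 0.03. Macrophage markers were lower in 5 of 10, and 3 of 10 with the trend removed (502.5 and 529.0 FPKM). Dendritic cell markers were lower in 7 of 8, and 6 of 8 with the trend removed (1208 and 997.0 FPKM, Xcr1 at 0). Mast cell and basophil markers were lower in 6 of 8, and 4 of 8 with the trend removed (341.0 and 286.3 FPKM). Lymphoid markers were lower in 6 of 7, and 5 of 7 with the trend removed (50.39 and 33.96 FPKM, Ncr1 at 0). The part of these cells in the antioxidant values was not tested either.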

How the data were processed

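RNA of CHBP- and CHBP+ M-MDSC was sequenced as 1 library each. The deposited table gives raw read counts and FPKM per gene. The authors' methods name TopHat2, HT-seq and mm9, whereas the submitters' processing notes name HISAT2 2.0.4, Cufflinks 2.1.1 and GRCm38. The deposited coordinates lie on GRCm38, since 99.92% of 10273 genes matching a RefSeq symbol overlapped it. The deposited FPKM were checked to be counts over a gene length and the library total, with no other scaling. How multi-mapping reads were handled is not given in the sources used here, so counts of overlapping genes and close paralogs are uncertain.

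A gene was kept if either library reached 1 FPKM, and the log2 ratio used a pseudocount of 1 FPKM. No replicate spread exists, so no negative binomial model was fitted. Reads were compared by an exact binomial test (genes of at least 10 reads, adjusted p of at most 0.05, Benjamini-Hochberg) and folds carry exact 95% Clopper-Pearson intervals, which take reads as independent. Transcript length and GC content came from GENCODE M1 by gene identifier for 93.3% of the genes kept, and their trend was removed with polynomials of degree 3. Promoter windows came from RefSeq, and 12 renamed symbols were matched through its synonyms. The calculation was tested on simulated data.

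The members and lists were chosen with earlier results of these data known. All 37 members are named, and of the pathway lists the genes at least 1.5-fold apart. Ratios between members were chosen after their values were seen. Other settings tried were 0.1 as the pseudocount, a minimum of 5 FPKM or none, a fold of 2, CPM, trimmed mean of M values (edgeR 4.0.16, R 4.3.3), centring on the median, both length trends, and the read test as a further criterion. Adding reads of overlapping genes, leaving out 8 overlapping members and totals without ferritin were added after seeing the data. Python 3.11.15, numpy 2.4.6, pandas 2.3.3, scipy 1.17.1 and matplotlib 3.10.9 were used.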

Additional observations from a re-analysis of the deposited data

How the results depend on the processing

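No paired analysis was possible because each condition holds 1 library, which also leaves no replicate to drop. The number of antioxidant genes at least 1.5-fold lower was 3, and it was 1 (Prdx5) with the trend on gene length removed, 0 with that on transcript length and GC content removed, 1 (Sod1) without the 8 members that overlap another gene, and 0 at a fold threshold of 2. It was 2, without Gsto1, with trimmed mean of M values or with the median set to 0, and 3 with the other settings tried, while the number at least 1.5-fold higher was 0 in each. The median log2 ratio of the genes was -0.0325 with the latter trend removed, and from -0.08 to -0.16 under the other settings. Among genes past the read test, the same removal turned Gstm1 to 0.11, Gpx1 to 0.21, Hmox1 to 0.13 and Blvrb to 0.17. Of these genes, the removal on gene length turned Hmox1 only, to 0.0417, and left Gstm1, Gpx1 and Blvrb below 0. Genes within counting error also changed sign. Glrx, Nqo1, Nfe2l2 and Gclm did so under both removals, and Mgst1 and Gss under that on transcript length and GC content. The counts of the read test, 23 lower and 3 higher, were the same with totals scaled by trimmed mean of M values and with genes of at least 50 reads. The cause was not tested, apart from the fewer genes and the higher threshold. With 1 library per condition, depth limits only what counting shows: genes such as Gclc, Gss and Nqo1 could differ within their intervals without being detected.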
